A study of Homo sapiens with 13 samples.

Results

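The genes described here encode the proteasome, its activators and its assembly factors. They were chosen by a rule on names, as the protein-coding genes of the count table whose symbol reads PSM, 1 letter from A to G, and a number. The rule used no measured value, though earlier results of these data were known when the genes were chosen. The rule found 48 of the 43836 genes in the table, and 46 of the 48 were among the 17092 genes with enough reads to test. The other two were PSMA8, a subunit of germ cells, which had 0 reads in all libraries, and PSMB11, a subunit of the thymus, which had 21 reads in all libraries together.

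Messenger RNA was sequenced from hFOB 1.19 cells, a single immortalized line of human fetal osteoblasts, the cells that form bone. Positive controls (PC, 2 libraries) had 10% fetal bovine serum in their medium, and negative controls (NC, 2 libraries) were serum-starved; per the methods of the study, both received the solvent DMSO. Serum-starved cells were also given resveratrol (RES, 3 libraries), peonidin-3-O-glucoside (POG, an anthocyanin, 3 libraries) or DEG (2 libraries), an abbreviation that the labels do not spell out, at 1 µg/mL per the treatment protocol. Library totals ran from 38464619 to 51416358 counted reads, and p-values measure only the spread between these libraries, since the labels do not say whether replicates were separate cultures.

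The osteoblast label was checked against markers, and the collagen gene COL1A1 stood at 2845 CPM in NC, where CPM are read counts scaled to a common library size. Of 9 osteoblast markers 7 passed the filter on low counts, with a summed level of 5263 to 5321 CPM in NC and 5462 to 5524 CPM in PC. COL1A1, COL1A2 (1347 CPM in NC) and SPARC (1046 CPM in NC) made up nearly all of this sum. RUNX2 stood at 47.1 CPM in NC, and ALPL, SPP1 and BGLAP at only 4.07, 2.16 and 1.49 CPM. SP7, a transcription factor of osteoblast differentiation, and IBSP fell below the filter with 53 and 1 reads in all libraries. The leukocyte markers PTPRC and CD3E had 23 and 0 reads, and the 4 leukocyte markers summed to at most 1.88 CPM in any library.

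The proteasome is the protease that degrades proteins tagged with ubiquitin. Its core particle is a barrel of alpha and beta rings, of which PSMB5, PSMB6 and PSMB7 carry the active sites; the regulatory particle on its ends, made of a base with a ring of ATPases and a lid, binds, unfolds and feeds in the tagged protein. Interferon signalling replaces the active-site subunits by PSMB8, PSMB9 and PSMB10, which form the immunoproteasome and shape the peptides shown on MHC class I molecules, and genes of the constitutive proteasome are known targets of the transcription factor NRF1 (gene NFE2L1), which binds antioxidant response elements in their promoters.

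The stretches below, from RefSeq promoter windows on GRCh38.p14, are shown because they carry the short motifs through which these routes are known to act, in genes that did and did not change with serum. Each is printed 5′ to 3′ on the strand of its gene, with the motif in capitals, and each ends before the RefSeq start of its window. In the gene annotation used here for positions, the PSMB8 and PSME2 stretches lie inside the gene span, and the PSMB10 stretch partly does. The first 4 hold the core of the antioxidant response element (TGACNNNGC), namely PSMB3 (chr17:38752611-38752670, plus strand), PSMD3 (chr17:39980744-39980803, plus), PSMD12 (chr17:67366709-67366768, minus) and PSME1 (chr14:24136082-24136141, plus). PSMB4 (chr1:151399480-151399539, plus), PSMB10 (chr16:67936852-67936881, minus) and PSME2 (chr14:24146619-24146648, minus) hold the core of the interferon-stimulated response element (ISRE; GAAA, any 2 bases, GAAA). PSMB8 (chr6:32844094-32844123, minus) holds the core of the interferon-gamma activated site (GAS, TTCNNNGAA).
PSMB3: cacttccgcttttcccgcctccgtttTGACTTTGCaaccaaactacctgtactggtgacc
PSMD3: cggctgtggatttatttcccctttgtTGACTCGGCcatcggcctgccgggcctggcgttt
PSMD12: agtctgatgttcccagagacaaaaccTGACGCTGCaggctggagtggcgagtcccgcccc
PSME1: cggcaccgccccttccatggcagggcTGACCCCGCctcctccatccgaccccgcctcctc
PSMB4: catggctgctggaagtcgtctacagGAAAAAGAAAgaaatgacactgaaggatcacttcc
PSMB10: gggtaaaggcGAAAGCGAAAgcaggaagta
PSME2: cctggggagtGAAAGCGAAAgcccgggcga
PSMB8: taactgtccttTTCTCGGAAaaggcagggg

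The windows ran from 250 bases before to 50 bases after each RefSeq start, and 42 of the 48 genes matched, with 51 windows. PSMA7, PSMB1, PSMB6, PSMB7, PSMD4 and PSMG3 had no entry. On either strand, TGACNNNGC occurred in 29.4% of the 51 windows and in 13.3% of all 35116 windows. The ISRE core occurred in 13.7% against 3.57%, and the GAS core in 15.7% against 7.66%. CCAAT, the motif of the factor NF-Y, occurred in 39.2% against 34.6%. Windows of 1 gene overlap and the motifs can overlap each other, so the shares are descriptions, and a match is not a bound site.

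Levels in the cells without serum covered every part of the proteasome. Divided by the length of the longest transcript of each gene, 11 of the 14 core genes that are not inducible lay between 16.2 and 169 CPM per kilobase in NC, with a median of 70.2. PSMA7, a subunit of the alpha ring, led at 169 ± 4.78 CPM per kilobase (SD, n = 2), followed by PSMD2, a scaffold of the base, at 145 ± 0.41 (SD, n = 2) and PSMB7, which carries the trypsin-like active site, at 140.3 ± 0.339 (SD, n = 2). The neighbours PSMD2 and PSMB7 differed by more than the SD of either. By the length of the canonical transcript, PSMB4 (158) and PSME2 (146.9) stood between PSMA7 and PSMD2. The 17 genes of the base and lid had a median of 34.8 CPM per kilobase, and the 4 chaperones that assemble the core, PSMG1 to PSMG4, a median of 11.8 by the longest and 27.2 by the canonical transcript.

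The remaining 3 alpha genes, PSMA1, PSMA2 and PSMA6, were listed far lower, at 0.829 to 7.32 CPM per kilobase. They are subunits of the same ring as PSMA7, and the annotation places a second protein-coding gene on the same strand over 67.0%, 100% and 81.4% of the exons of their canonical transcripts. PSMB10 (56.1%) and PSMD9 (28.8%) are overlapped in the same way. The overlapping genes themselves held 2 to 887 reads in all libraries. How reads shared by such genes were counted is not given in the sources used here, and its part in the low levels was not tested; the counts of these 5 genes are uncertain. PSMC1 and PSMD7 lie opposite NRDE2 and a long noncoding RNA over 83.2% and 51.6% of the exons of their canonical transcripts. PSMC5 lies opposite FTSJ3 over 13.7%, with 46970 reads on FTSJ3 beside 60343 on PSMC5. Without a stated strand setting those reads cannot be told apart. The table also held 44 pseudogenes of 17 members, with 2065 reads against 2300936 reads on the members.

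The comparison of positive with negative controls asked how serum changes the proteasome genes. Most genes of the constitutive proteasome were slightly higher with serum, while none of the 3 inducible subunits was called higher. Of the 46 genes tested, 37 were called (edgeR exact test, false discovery rate (FDR) under 0.05), against 42.4% of all genes tested. Of these 34 were higher with serum, where 21.4% of all genes were called higher, and 3 were lower, where 20.9% of all genes were. The median log2 fold change of the 46 genes was 0.24, and that of all genes was -0.01. The 34 genes called higher were also higher in both serum libraries than in both serum-starved ones, as were 32.9% of all genes tested. Together the 48 genes took 0.502% and 0.475% of the reads of the PC libraries and 0.424% and 0.428% of those of the NC libraries.

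**Figure D1:**
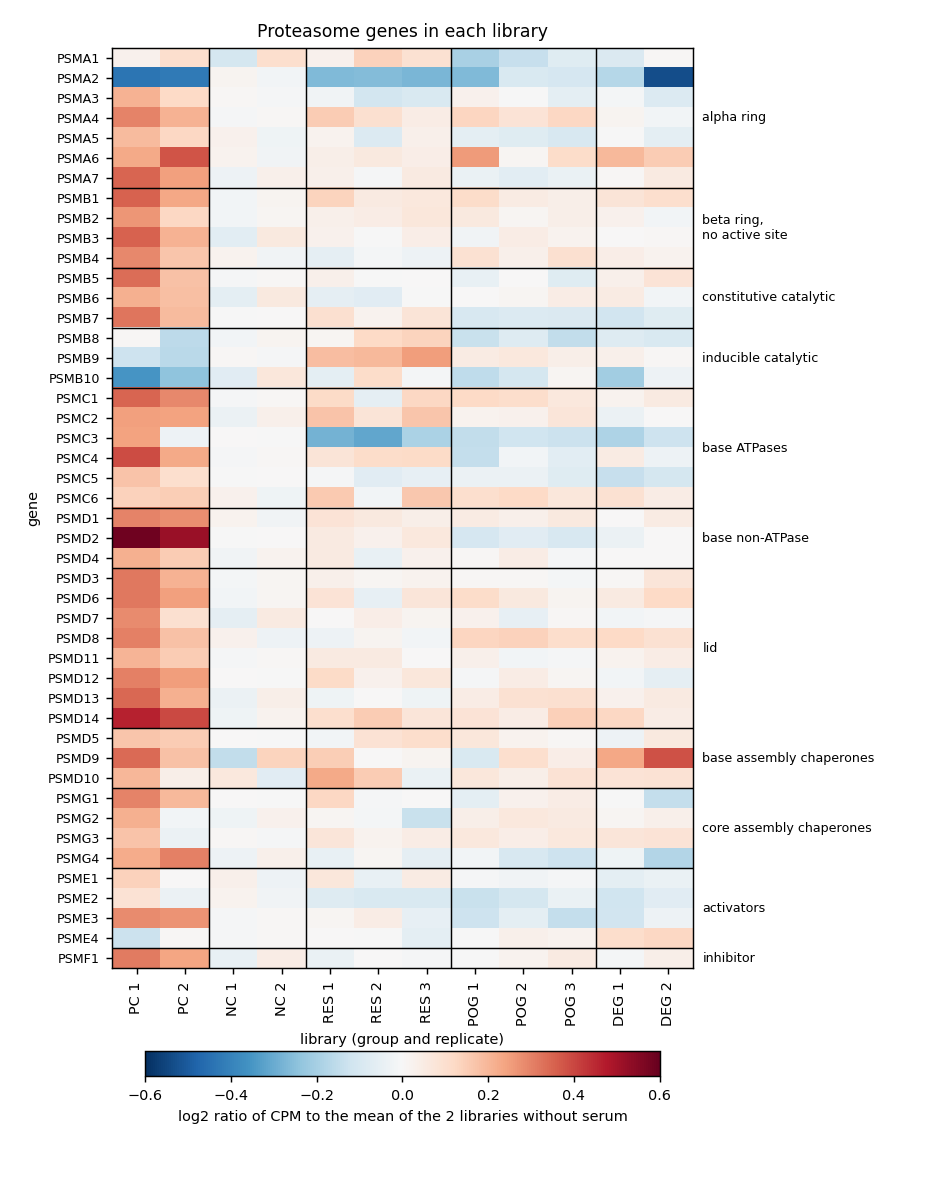
Levels of the 46 tested genes (rows, in blocks by role) in the 12 libraries (columns), as the log2 ratio of CPM to the mean of the 2 libraries without serum. The PC columns are red in most blocks and blue or near white for PSMB8, PSMB9 and PSMB10, and PSMA2 is blue in every library outside NC.

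In the core particle the beta ring rose as a block. All 4 beta genes without an active site (PSMB1 to PSMB4) were called higher, with log2 fold changes of 0.20 to 0.29. All 3 constitutive active-site genes were higher as well. PSMB5, the chymotrypsin-like subunit (ENSG00000100804.18; hg38 chromosome 14, 23016543 to 23035230), had 138 and 124 CPM with serum and 109 and 110.1 CPM without. It rose by 0.26 on the log2 scale (SE 0.0434, edgeR FDR 2.30e-07), and its groups did not overlap. PSMB6, the caspase-like subunit, had 107 and 105 CPM with serum and 88.7 and 96.1 CPM without (log2 fold change 0.20, SE 0.0428, edgeR FDR 8.28e-05). PSMB7 had 173 and 158 CPM with serum and 138 and 138 CPM without (log2 fold change 0.26, SE 0.04, edgeR FDR 2.49e-08). All 3 lay higher in both serum libraries than in either starved library.

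The alpha ring rose with 5 of its 7 genes, by 0.16 (PSMA5) to 0.30 (PSMA6 and PSMA7). PSMA1 had a log2 fold change of 0.06 and was not called (edgeR FDR 0.629). PSMA2 (ENSG00000106588.10; hg38 chromosome 7, 42916828 to 42932185) went the other way, with 3.28 and 3.32 CPM with serum and 4.49 and 4.4 CPM without. Its log2 fold change was -0.43 (SE 0.147, edgeR FDR 0.00995). This is the lowest of the tested genes and wholly overlapped by a second gene, and the call was lost without PC replicate 1 (edgeR FDR 0.0728) and without NC replicate 1 (edgeR FDR 0.0616). Without the 3 overlapped alpha genes, 11 of 11 constitutive core genes were higher with serum.

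The inducible active-site subunits were set apart from the rest. PSMB10, the inducible counterpart of PSMB7 (ENSG00000205220.11; hg38 chromosome 16, 67934506 to 67936864), had 9.37 and 10.1 CPM with serum and 11.4 and 12.5 CPM without. It fell by 0.30 on the log2 scale (SE 0.0955, edgeR FDR 0.00662), a call lost without PC replicate 1 (edgeR FDR 0.0975) and without NC replicate 2 (edgeR FDR 0.148). PSMB9, the counterpart of PSMB6 (ENSG00000240065.7; hg38 chromosome 6, 32844136 to 32859851), had 47.6 and 46.4 CPM with serum and 52.1 and 51.6 CPM without. It fell by 0.14 (SE 0.0464, edgeR FDR 0.0112), a call lost without PC replicate 2, NC replicate 1 or NC replicate 2 (edgeR FDR 0.0722, 0.0787 and 0.0612) and with dispersions from PC and NC alone (edgeR FDR 0.0899). PSMB8, the counterpart of PSMB5 (ENSG00000204264.8; hg38 chromosome 6, 32840717 to 32844679), had 95.6 and 85.4 CPM with serum and 94.1 and 96.04 CPM without. Its groups overlapped, its log2 fold change was -0.07 (SE 0.0481), it missed the threshold (edgeR FDR 0.272), and its 95% interval ran from -0.17 to 0.03. Leaving out a library moved it from -0.15, which was called without PC replicate 1 (edgeR FDR 0.00361), to 0.02 without PC replicate 2.

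Because counts of a pair within a library do not depend on how libraries are scaled, the inducible share of each pair was taken per kilobase of the longest transcript. PSMB8 made up 24.6% and 24.5% of the sum of PSMB8 and PSMB5 in the PC libraries and 28.9% and 29.1% in NC. PSMB9 made up 12.7% and 12.6% of its sum with PSMB6 in PC and 16.1% and 14.9% in NC. PSMB10 made up 5.18% and 6.07% of its sum with PSMB7 in PC and 7.69% and 8.36% in NC. In all 3 pairs both serum libraries lay below both starved ones. The size of the shares of PSMB8 and PSMB9 depends on the length used. By the longest transcript, PSMB8 stood at 40.07 CPM per kilobase in NC beside 97.99 for PSMB5, and PSMB9 at 19.39 beside 106.1 for PSMB6. By the canonical transcript, PSMB8 stood at 84.59 beside 104.8, and PSMB9 at 51.03 beside 112.2. These shares are a description and were given no test.

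**Figure D2:**
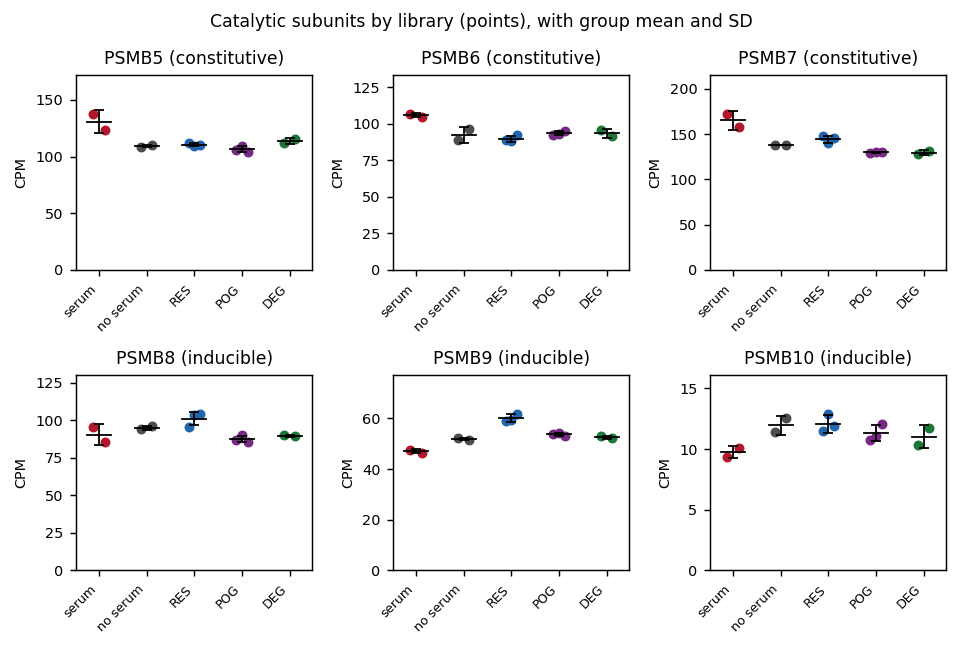
CPM of the 3 constitutive (top) and 3 inducible (bottom) active-site subunits in each library (points), with the mean (line) and SD (bar) of each group; each vertical axis starts at 0. PSMB5, PSMB6 and PSMB7 lie highest with serum, while PSMB9 lies lowest with serum at 47.0 CPM and highest with RES at 60.1 CPM.

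The regulatory particle moved with the constitutive core. In the base, all 3 genes that are not ATPases and 5 of the 6 ATPases were called higher, and all 8 lid genes were called higher; with libraries scaled by their totals only, 3 of the 6 ATPases were. PSMD2 (ENSG00000175166.16; hg38 chromosome 3, 184299198 to 184309050), a base scaffold that docks ubiquitin shuttles, had the most reads of all 48 genes. It stood at 634 and 606 CPM with serum and at 422 and 424 CPM without, a rise of 46.6% (log2 fold change 0.55, SE 0.0304, edgeR FDR 7.67e-51). PSMD14 (ENSG00000115233.11; hg38 chromosome 2, 161308425 to 161411717), the lid enzyme that removes ubiquitin from the substrate, had 89.6 and 85.7 CPM with serum and 64.0 and 66.1 CPM without (log2 fold change 0.43, SE 0.0458, edgeR FDR 1.14e-17). PSMC1, an ATPase of the base ring, had 114 and 109 CPM with serum and 89.0 and 89.6 CPM without (log2 fold change 0.32, SE 0.0469, edgeR FDR 1.19e-09). For all 3 the libraries of PC and NC were well apart.

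The other lid genes rose by 0.18 (PSMD11) to 0.28 (PSMD6 and PSMD13), and the ubiquitin receptor PSMD4 rose by 0.18. Among the ATPases PSMC4, PSMC2, PSMC6 and PSMC5 rose by 0.31, 0.24, 0.14 and 0.14. PSMC3 is the exception: its serum libraries held 149.8 and 124 CPM, on either side of 127 and 126 CPM without serum, and it was not called (log2 fold change 0.11, edgeR FDR 0.101). The median of the 17 base and lid genes was 0.26, beside 0.25 for the 11 constitutive core genes without the overlapped ones.

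**Figure D3:**
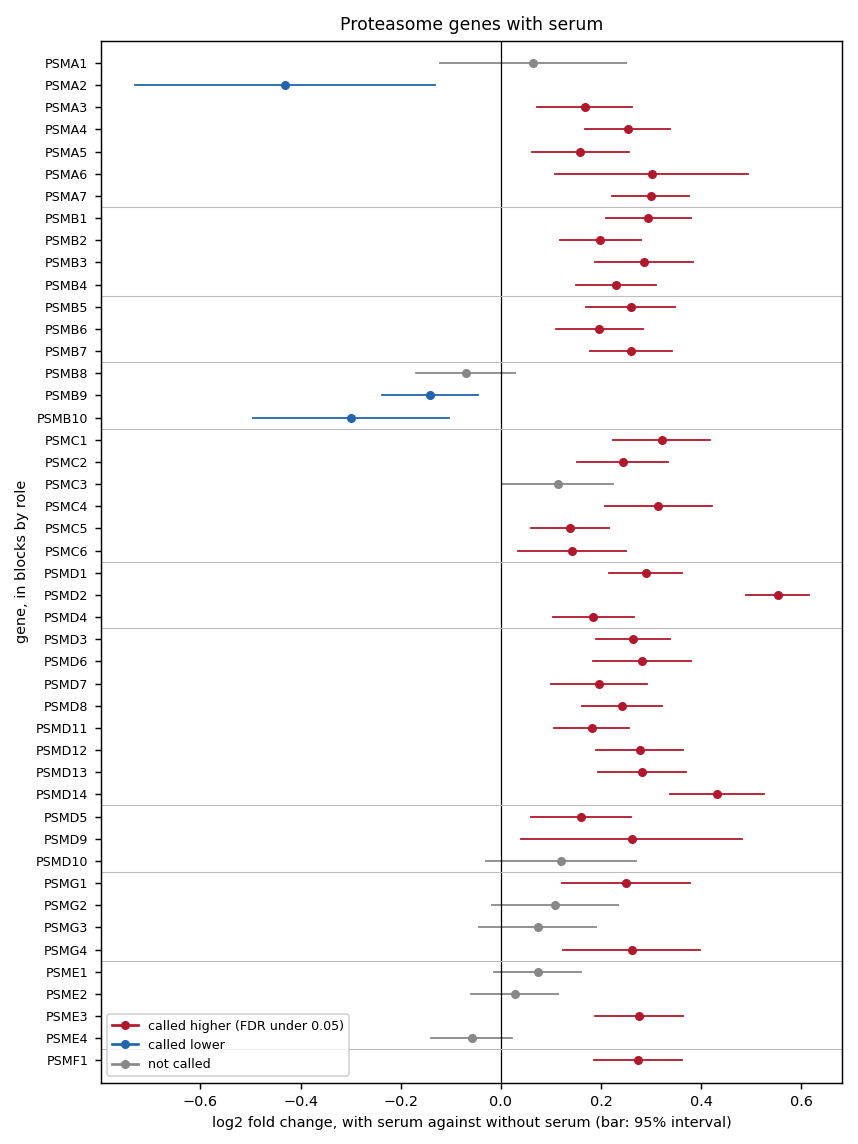
Log2 fold change of each tested gene with serum against without (points), with its 95% interval (bar), in blocks by role; red is called higher, blue called lower and grey not called. Most points lie between 0.14 and 0.32 to the right of 0, PSMD2 lies farthest right at 0.55, and PSMA2, PSMB9 and PSMB10 lie left of 0.

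Assembly factors, activators and the inhibitor were mixed. Of the 4 chaperones of the core, PSMG1 and PSMG4 rose by 0.25 and 0.26, while PSMG2 and PSMG3, with log2 fold changes of 0.11 and 0.07, were not called. Of the 3 chaperones of the base, PSMD5 and PSMD9 rose by 0.16 and 0.26, and PSMD10 had 0.12 and was not called; with libraries scaled by their totals only, none of these 3 was called. PSME3, the activator found in the nucleus, rose by 0.28. The interferon-inducible activators PSME1 and PSME2 (log2 fold changes of 0.07 and 0.03) and PSME4, the activator known from DNA repair and spermatogenesis (-0.06), were not called. PSMF1, an inhibitor of the core, rose by 0.27.

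Other genes of the pathway were counted beside the 42.4% of all genes that were called with serum. Of 8 subunits and partners, 8 were called higher, with a median of 0.20, and 5 of 8 when libraries were scaled by their totals. They include ADRM1, the ubiquitin receptor of the base (0.26), TXNL1, a thioredoxin bound to the regulatory particle (0.41), and POMP, the chaperone of the beta ring (0.21). Of 6 genes for ubiquitin and its activation 3 were higher, among them RPS27A and UBA1, and none lower. The polyubiquitin gene UBB had a log2 fold change of 0.09 and was not called. Of 10 genes that bring substrates to the proteasome 5 were higher and none lower, with a median of 0.09 and RAD23B at 0.28, and 3 were higher when libraries were scaled by their totals.

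Most regulators of both routes described above were lower with serum. Of 8 genes of the NRF1 pathway 5 fell and 1 rose. NFE2L1 itself fell from 552 to 473 CPM (log2 fold change -0.22, edgeR FDR 6.04e-10). DDI2, the protease that activates NRF1, fell by 0.44, MAFG and MAFK, its small Maf partners, by 0.41 and 0.51, and NFE2L2 by 0.24. NFE2L3, a relative of NRF1, rose by 0.68. Of 11 interferon and MHC class I genes 11 fell, with a median of -0.34, among them TAP1 (-0.36), NLRC5 (-0.29) and TAPBP (-0.49); the HLA genes are close paralogs and share reads. PSMB8 and PSMB9 lie in opposite orientation on chromosome 6, and their annotated spans (32840717 to 32844679 and 32844136 to 32859851) overlap. The exons of their canonical transcripts are overlapped by no other gene of the count table. TAP1, which feeds peptides to MHC class I, lies on the opposite strand and starts inside the annotated span of PSMB9, with start sites 9680 bases apart. Exons outside the canonical transcripts were not checked for overlap.

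The changes with serum were also set against the promoter motifs, as a description. Of 15 genes with TGACNNNGC 10 were called higher with serum and 1 lower, with a median log2 fold change of 0.25. Of 25 tested genes whose windows lack it 19 were higher and 2 lower, with a median of 0.23. PSMB3, PSMD3 and PSMD12, whose stretches are printed above, rose by 0.29, 0.26 and 0.28, while PSME1, with the same core, was not called. Of the 7 genes with the ISRE core 3 were higher and 1 lower, with a median of 0.07, and of 7 tested genes with the GAS core 5 were higher and 1 lower.

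Markers of other cell types were measured beside the changes with serum. The 4 leukocyte markers summed to 1.75 and 1.88 CPM in PC and to 1.16 and 1.29 CPM in NC, and the 3 endothelial markers to 2.987 to 2.995 and 2.893 to 2.967 CPM. Of the 2 tested endothelial markers KDR rose by 1.14 and PECAM1 fell by 0.54 on the log2 scale. The 3 epithelial markers summed to 202 to 221 CPM in PC and 184 to 189.8 CPM in NC, and KRT18, which made up nearly all of this sum, rose by 0.18 (edgeR FDR 1.47e-04). The part of these markers in the changes with serum was not tested. In bulk RNA, a lower level may come from fewer cells of a type or from less RNA per cell, and the 2 cannot be told apart.

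The next comparisons asked what each compound did to the proteasome genes of starved cells. All 3 share the NC libraries, so their values are given side by side. Few genes moved: 3 of 46 were called with RES (11.2% of all genes were), 2 with POG (14.5%) and 1 with DEG (9.63%). The median log2 fold change was 0.03 with RES, 0.02 with POG and 0.01 with DEG. The 95% interval lay within 0.5 of no change on the log2 scale for 45 genes with RES, 46 with POG and 44 with DEG. With dispersions estimated without the positive controls, 8, 10 and 8 genes were called, where 17.2%, 20.6% and 15.2% of all genes were, and scaling by library totals turned the single DEG call from 1 lower into 3 higher. Leaving out a RES library gave 2 to 4 called genes with RES, where 8.17% to 8.60% of all genes were called. With POG it gave 1 without NC replicate 1, POG replicate 2 or POG replicate 3 and 0 without NC replicate 2 or POG replicate 1, and with DEG 0 without NC replicate 1 or either DEG library.

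With RES the inducible subunit PSMB9 rose most. Its RES libraries held 59.0, 59.4 and 61.8 CPM against 52.1 and 51.6 CPM in NC, without overlap (log2 fold change 0.21, SE 0.0419, edgeR FDR 6.97e-05). The call held without each library in turn (highest edgeR FDR 0.0118). PSMB9 reached 17.7% to 18.0% of its sum with PSMB6, beside 16.1% and 14.9% in NC. PSMB8 had 95.8, 103 and 104 CPM with RES and 94.1 and 96.04 CPM in NC, with a log2 fold change of 0.09 (SE 0.0438) that missed the threshold (edgeR FDR 0.229). PSMB10 had 11.5, 12.9 and 11.9 CPM with RES against 11.4 and 12.5 CPM (log2 fold change 0.01, SE 0.0854, edgeR FDR 0.972).

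PSMC3, an ATPase of the base, fell with RES. It had 104, 102 and 111 CPM against 127 and 126 CPM in NC, without overlap (log2 fold change -0.26, SE 0.0498, edgeR FDR 2.91e-05). In the other compounds it had -0.13 with POG (edgeR FDR 0.0708) and -0.15 with DEG (edgeR FDR 0.0689), and was not called. PSMC2, another ATPase of the base, had 74.8, 70.1 and 74.6 CPM with RES against 64.9 and 67.9 CPM (log2 fold change 0.14, SE 0.0411, edgeR FDR 0.0175). That call was lost without NC replicate 1 (edgeR FDR 0.331), RES replicate 1 (edgeR FDR 0.0934) or RES replicate 3 (edgeR FDR 0.0908).

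With POG 2 subunits rose by under 10%. PSMD8, a lid subunit, had 167, 168 and 164 CPM against 156 and 149.7 CPM in NC (log2 fold change 0.12, SE 0.0355, edgeR FDR 0.0152). PSMA4, an alpha subunit, had 111, 108 and 111 CPM against 101 and 102 CPM (log2 fold change 0.11, SE 0.0382, edgeR FDR 0.0435). Neither gene overlapped between the groups. The PSMA4 call was lost without each of the 5 libraries in turn (highest edgeR FDR 0.26), and the PSMD8 call without NC replicate 2, POG replicate 1 or POG replicate 2 (edgeR FDR 0.278, 0.0585 and 0.0724).

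With DEG only PSMC5, another ATPase of the base that lies partly opposite FTSJ3, was called. It had 107 and 109.5 CPM against 117 and 118 CPM in NC, without overlap (log2 fold change -0.12, SE 0.039, edgeR FDR 0.0448), and the call was lost without each of the 4 libraries in turn (highest edgeR FDR 0.352). PSMD9, whose counts are uncertain for its overlap, had the largest positive value, 9.79 and 10.9 CPM against 7.52 and 9.15 CPM, and was not called (log2 fold change 0.31, edgeR FDR 0.0508).

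The constitutive active-site genes were not called with any compound. Their log2 fold changes were 0.01, -0.04 and 0.06 for PSMB5, -0.04, 0.02 and 0.02 for PSMB6 and 0.07, -0.09 and -0.09 for PSMB7 with RES, POG and DEG (edgeR FDR of 0.128 or more). PSMB8 had -0.12 with POG (edgeR FDR 0.062) and -0.08 with DEG (edgeR FDR 0.367). PSMB9 had 0.05 and 0.02 (edgeR FDR 0.55 and 0.906), and PSMB10 -0.08 and -0.12 (edgeR FDR 0.64 and 0.553).

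**Figure D4:**
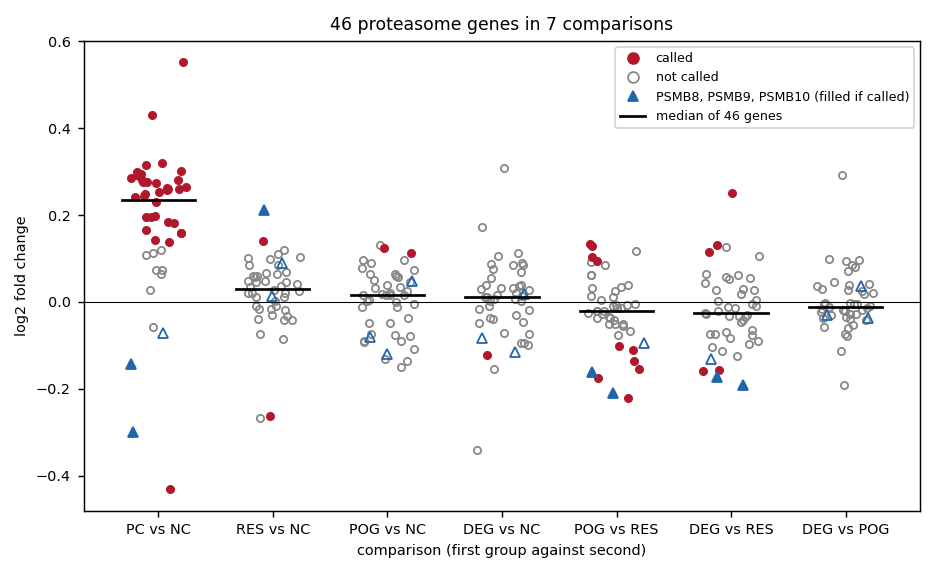
Log2 fold change of the 46 tested genes in the 7 comparisons (first group against second); filled symbols are called, open ones not, triangles are PSMB8, PSMB9 and PSMB10, and the line is the median. The serum comparison is centred at 0.24, the others lie near 0, and the triangles of POG and DEG against RES lie below 0.

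The compounds were then compared with each other, at the same labelled concentration. Of the 46 genes 12 differed between POG and RES, against 27.9% of all genes. Of these 4 were higher with POG (13.7% of all genes were) and 8 lower (14.1%), and the median log2 fold change was -0.02. Between DEG and RES 7 genes differed, where 21.2% of all genes did; 3 were higher with DEG (10.3% of all genes were) and 4 lower (10.8%). Both comparisons share the RES libraries, and the inducible subunits PSMB8 and PSMB9 were lower than with RES in each. Without POG replicate 1 or RES replicate 1 the count for POG was 7, where 22.8% and 23.5% of all genes were called. Without a RES library the count for DEG was 5 to 7, where 17.7% to 18.0% of all genes were called. Leaving out a DEG library leaves 1 in its group, so no count is given.

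PSMB8 had 86.6, 89.99 and 85.8 CPM with POG and 90.2 and 89.3 CPM with DEG, against 95.8, 103 and 104 CPM with RES. The POG and DEG libraries all lay below the RES libraries. The log2 fold change was -0.21 for POG (SE 0.0389, edgeR FDR 4.95e-06) and -0.17 for DEG (SE 0.0441, edgeR FDR 0.00201). PSMB9 had 53.7, 54.2 and 53.2 CPM with POG and 53.1 and 52.1 CPM with DEG, against 59.0, 59.4 and 61.8 CPM with RES. It differed by -0.16 for POG (SE 0.0367, edgeR FDR 2.52e-04) and -0.19 for DEG (SE 0.0419, edgeR FDR 1.93e-04). Without DEG replicate 2 the call of PSMB8 for DEG was lost (edgeR FDR 0.0593), and the other 3 held without each library in turn. PSMB10 was not called, at -0.09 for POG and -0.13 for DEG (edgeR FDR 0.396 and 0.323).

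Among the other genes lower with POG than with RES, PSMA1 had 9.77, 10.1 and 10.6 CPM against 11.4, 12.3 and 11.9 CPM (log2 fold change -0.22, SE 0.0737, edgeR FDR 0.0138), with uncertain counts for its overlap. That call was lost without RES replicate 2 or POG replicate 1 (edgeR FDR 0.0806 and 0.0839). PSMC4 had 49.9, 54.5 and 52.8 CPM against 58.2, 59.6 and 59.7 CPM (log2 fold change -0.18, SE 0.0427, edgeR FDR 6.71e-04). PSMB7 was lower by 0.16 in both comparisons (edgeR FDR 1.37e-04 and 9.08e-04; for DEG 0.0732 without DEG replicate 1) and PSMC2 by 0.10 and 0.16 (edgeR FDR 0.0334 and 0.00284). PSMD2 (-0.14) and PSME3 (-0.11) were lower with POG.

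The genes higher than with RES came from several parts of the proteasome. PSMD8 had 167, 168 and 164 CPM with POG and 166 and 163 CPM with DEG, above 149.7, 154 and 151 CPM with RES (log2 fold changes 0.13 and 0.12, SE 0.0315 and 0.0354, edgeR FDR 9.18e-04 and 0.0178). PSMC3, at 114, 116 and 116 CPM with POG, lay above its RES libraries by 0.13 (SE 0.0446, edgeR FDR 0.0245) and by 0.11 for DEG, where it was not called (edgeR FDR 0.143). The beta gene PSMB4 and the lid gene PSMD13 were higher with POG by 0.10 and 0.09 (edgeR FDR 0.0138 and 0.0451). With DEG, PSME4 was higher by 0.13 (edgeR FDR 0.00638) and PSMD9 by 0.25, at 9.79 and 10.9 against 9.24, 8.36 and 8.44 CPM (SE 0.0976, edgeR FDR 0.0495). The calls rested on single libraries in several cases. The POG call was lost for PSMC3 without any library but RES replicate 3 (highest edgeR FDR 0.163) and with DESeq2 (adjusted p 0.139), and for PSMB4 without RES replicate 1, POG replicate 1 or POG replicate 3 (highest edgeR FDR 0.0861). The DEG call was lost for PSMD8 without RES replicate 1, RES replicate 3 or either DEG library (highest edgeR FDR 0.207), and for PSME4 without RES replicate 3 or either DEG library (highest edgeR FDR 0.109). That of PSMD9 was lost without RES replicate 2, RES replicate 3 or either DEG library (highest edgeR FDR 0.435), and also with DESeq2 (adjusted p 0.0932) and the quasi-likelihood test (edgeR FDR 0.0702).

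Between DEG and POG 0 of the 46 genes were called by edgeR's exact test, where 1.05% of all genes were. At an unadjusted p under 0.05 the count was 6, beside 1828 of all 17092 genes, and edgeR's quasi-likelihood test and DESeq2 also called 0. With dispersions from the compared groups 6 of the 46 were called, where 4.90% of all genes were. With dispersions without positive controls 4 were called, where 3.87% of all genes were. All 46 intervals of the difference lay within 0.5 of no change, and the largest difference was 0.29, for PSMD9, with a 95% interval of 0.09 to 0.49. For the inducible subunits the intervals ran from -0.05 to 0.13 (PSMB8), from -0.12 to 0.06 (PSMB9) and from -0.21 to 0.14 (PSMB10).

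The partner genes of antigen presentation also differed between compounds. Of the 11 interferon and MHC class I genes 7 were called with RES against NC, where 11.2% of all genes were. Of these 5 were higher (among them B2M, HLA-B and TAP1, at 0.15, 0.16 and 0.12) and 2 lower (ERAP1 and TAPBP). Scaled by library totals, 6 were higher and 1 lower. With POG 2 were called, both lower (among them NLRC5, at -0.33), where 14.5% of all genes were called. With DEG 3 were called, all lower (among them NLRC5 and IRF1), where 9.63% of all genes were called. Against RES 7 were lower (14.1% of all genes were) and 1 higher (13.7%) with POG, and 4 were lower with DEG (10.8%). Of the 8 partners of the proteasome none was called with RES or DEG and 1 with POG (PAAF1, at 0.21), beside the same shares of all genes. Of the NRF1 list, NFE2L2 fell by 0.29 and MAFK by 0.23 with RES while NFE2L3 rose by 0.18. MAFK fell by 0.11 with POG, and MAFF rose by 0.13 with DEG.

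Beside the differences between POG and RES, 2 of 2 tested endothelial markers and 1 of 2 tested leukocyte markers were lower with POG. Of all genes 14.1% were called lower. Of 7 tested osteoblast markers 4 were lower with POG than with RES and 1 was higher, where 13.7% of all genes were called higher. Against NC, 3 were lower with POG, 3 with DEG and 1 with RES, and none was higher, where 14.5%, 9.63% and 11.2% of all genes were called. The 9 osteoblast markers summed to 4751 to 4786 CPM with POG, 4763 to 4769 with DEG, 4907 to 5035 with RES and 5263 to 5321 in NC. The 3 endothelial markers summed to 1.33 to 2.18 CPM with POG and 2.92 to 3.25 CPM with RES, and the 4 leukocyte markers to 0.726 to 0.990 and 1.59 to 1.64 CPM. The 3 epithelial markers, of which KRT18 made up nearly all, summed to 153 to 161 CPM with POG and 203 to 210.3 CPM with RES, and KRT18 was called lower with POG. With DEG, PECAM1 and KRT18 were lower than with RES by 0.63 and 0.26 (edgeR FDR 0.0152 and 3.73e-09), and the endothelial markers summed to 2.09 to 2.30 CPM and the epithelial ones to 170 to 174 CPM. Against NC, KRT18 rose with RES by 0.14 (edgeR FDR 0.00751) and fell by 0.25 with POG, and PECAM1 fell by 0.91 with POG and by 0.74 with DEG (edgeR FDR 8.86e-09, 1.36e-04 and 0.0149). The part of such markers in the levels of PSMB8 and PSMB9 was not tested.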

How the data were processed

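Per the labels and the methods of the study, polyA-selected RNA from 13 samples was sequenced as read pairs. The authors deposited a table of raw read counts per Ensembl gene, made with STAR (BWA MEM is named as well) on hg38 and featureCounts; versions, annotation release, strand setting and the treatment of shared reads are not given in the sources used here. The table has 12 library columns; DEG replicate 3 was not analysed here.

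Counts were tested with the exact test of edgeR 4.0.16 (R 4.3.3) and Benjamini-Hochberg adjustment, both as in the study, over 17092 genes. The filter (filterByExpr), the TMM scaling and the dispersions from all 12 libraries were chosen here. Genes at FDR under 0.05 were called. Standard errors and 95% intervals were taken from a quasi-likelihood fit in edgeR. The CPM values used TMM-scaled totals. Read totals of the tested proteasome genes ran from 1964 to 235210 over all libraries, so the lowest genes are least precise. Gene symbols, positions and lengths came from GENCODE 44 (hg38). Promoters came from RefSeq.

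Described in full were PSMB5 to PSMB10 and, in each comparison, at most 3 genes called each way with the largest change, averaging at least 1 CPM in one of the groups; other genes were grouped by role or fixed list. Some genes of these lists are not reported here by name and stay in the counts. The genes and lists were chosen with earlier results of these data known. As alternatives, a quasi-likelihood test (edgeR), DESeq2 1.42.0, other scalings, filters, dispersions and thresholds, other lengths, and leaving out each library were tried.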

Additional observations from a re-analysis of the deposited data

How the results depend on the processing

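For serum, the alternatives that kept all libraries gave 26 to 37 called genes. The lowest came with changes under 0.2 on the log2 scale left out, where 32.3% of all genes were called. The share of all genes ran from 22.6% with no low-count filter to 52.4% with a mean of at least 1 CPM. Leaving out a PC, NC or DEG library leaves 1 in its group, so no counts are given for that. For RES 3 genes became 7 with dispersions from the compared groups, 8 with dispersions without positive controls and 5 with plain library totals. They became 2 to 4 without a RES library, where 8.17% to 8.60% of all genes were called. For POG 2 became 10 under both dispersion settings, 0 at FDR under 0.01 or when changes under 0.2 on the log2 scale were left out, and 0 to 1 without a library. For DEG 1 became 8 under both dispersion settings and 2 with DESeq2 size factors or a mean of at least 1 CPM. It became 3 with plain totals and 0 at FDR under 0.01 or that limit of 0.2. Between POG and RES 12 became 6 at FDR under 0.01 and 2 with that limit of 0.2. They became 7 to 10 without a library, where 22.8% to 23.5% of all genes were called. Between DEG and RES 7 became 13 under both dispersion settings and 1 with that limit of 0.2. They became 5 to 7 without a RES library, where 17.7% to 18.0% of all genes were called. Between DEG and POG 0 became 6 with dispersions from the compared groups and 4 without positive controls. It stayed 0 without a POG library, where 0.511% to 0.587% of all genes were called. The share of all genes called moved as well. With dispersions from the compared groups it was 15.9%, 21.2% and 15.1% for RES, POG and DEG. It was 17.2%, 20.6% and 15.2% without positive controls. For DEG against RES both settings gave 26.6% and 27.1%, and for DEG against POG 4.90% and 3.87%. At FDR under 0.01 it was 8.96% for POG, 5.70% for DEG and 19.8% for POG against RES. With the limit of 0.2 it was 8.34%, 5.88% and 14.7%, and 12.1% for DEG against RES. The cause was not tested. With plain totals 11.3% of all genes were called for RES and 10.0% for DEG. The median of all genes then moved from -0.01 to -0.05 for serum. The share of called genes that were higher moved from 50.6% to 41.0% for serum and from 44.3% to 64.0% for RES.

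Of 437 repeats for single genes 354 kept direction and call, 81 lost the call, 1 gained it and 1 reversed. The gain and the reversal were PSMB8 with serum, -0.15 without PC replicate 1 and 0.0155 without PC replicate 2.

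The median level of the 3 overlapped alpha genes in NC was 2.02 CPM per kilobase by the longest transcript, 1.47 by the union of exons and 9.34 by the canonical transcript, an alternative chosen after seeing the data. That of the other constitutive core genes was 70.2, 63.9 and 104.8, and that of the 4 chaperones of the core 11.8, 8.38 and 27.2. Without division by length, PSMB8 made up 46.5% of its pair in NC and PSMB9 36.0%.

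No paired analysis was possible because the labels give no replicate numbers; the numbers used here only name libraries. The precision of each value is that of its 95% interval, from 2 or 3 libraries a group.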
